A study of Drosophila melanogaster with 36 samples.

Results

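The effect of temperature on the mean transcript level of clock neurons was read from 24 of the 36 libraries of the series: 12 of flies kept at 18 °C and 12 of flies kept at 25 °C, both on rich food. The 12 libraries at 18 °C are called HC18 and the 12 at 25 °C HC25. Both had food with 1.5x sucrose and yeast, the standard food of the submitters, and each library was taken at 1 of 12 zeitgeber times (ZT, hours on the light schedule), every 2 h from ZT02 to ZT24. The remaining 12 libraries (LC25, at 25 °C on food with 0.5x sucrose and yeast) entered the estimate of the spread and are quoted as medians. Which code stands for which food and temperature was read from the code and the design text. All flies were female, of the w1118 background and labelled WT, and carried membrane GFP under the control of Pdf, so that the sorted cells are those in which Pdf is active. Flies were raised at these temperatures, so growth in the cold and adult life in the cold cannot be told apart. The sources used here give neither the age of the flies nor the number of brains per library. Every comparison below is between 12 pairs of libraries matched by ZT, with 1 library per temperature and time. No label tells whether each library is a pool or separate flies, so the p-values reflect the spread among these libraries alone, which may be technical.

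LNv neurons (ventral lateral neurons) are the clock neurons of the fly brain that release the neuropeptide PDF and drive rest and activity rhythms. Flies are ectotherms, so temperature changes the rate of their biochemistry, while the clock keeps its period. Cold is also known to change splicing of clock transcripts such as per and tim in fly heads, and with it the timing of evening activity. Mitochondrial genes are read from the mitochondrion's own genome, and cytosolic ribosomal protein genes from the nucleus. Many fly genes also end their transcripts at several alternative sites, which leaves the protein unchanged and alters the length of the 3′ untranslated region.

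Pdf, the marker of the sorted cells, was the gene of highest level in all 12 HC18 libraries and in 11 of 12 HC25 libraries, with 222123 to 296265 TPM in HC18 libraries (median 273423) and 76779 to 288443 TPM in HC25 libraries (median 216272). Of other cells, glia markers summed to 76.7 to 167 TPM in HC18, and to 844 and 1448 TPM in the HC25 libraries of ZT06 and ZT08, against at most 133 TPM in the other HC25 libraries. Markers of other clock neurons, NPF among them, summed to 701 to 2604 TPM in HC18 (median 1069) and 556 to 2489 TPM in HC25 (median 1654), lower in HC18 in 10 of 12 pairs. Of the 5 measured members of that list NPF alone passed in the fit below, and the list's median log2 difference was -0.03. Markers of monoaminergic neurons summed to 462 to 945 TPM in HC18 (median 770.2) and 470.1 to 1259 TPM in HC25 (median 1023), lower in 9 of 12 pairs. Their part in the results was not tested. Photoreceptor, muscle and haemocyte markers each summed to at most 109 TPM in any HC18 or HC25 library. The LC25 library of ZT18 had 1003 TPM of photoreceptor markers. Of the markers in the table, 8 of 13 for glia, 4 of 11 for fat body and 8 of 10 for female germline and eggshell had a mean of at least 1 TPM. Defining markers with a median of 0 over the 24 libraries were Fbp2 of the fat body list and Trissin of the list of other clock neurons. Some libraries stood apart from the rest of their group: the HC18 libraries of ZT06, ZT08, ZT10 and ZT22 had 121 to 1603 TPM of fmt, against 18790.4 to 84165 TPM in the other 8 HC18 libraries and 6458 to 55105 TPM in HC25. Most named results and list counts below are also given from the 8 pairs that remain without those times, which leave out HC25 ZT06 and ZT08 as well, and most list counts also with those 4 HC18 libraries alone left out (the low-fmt HC18 libraries). In bulk libraries fewer cells of a type and less RNA per cell cannot be told apart. TPM are shares of a library, so a larger part taken by one gene lowers all others.

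Levels averaged over the day differed between 18 °C and 25 °C in 711 of 8649 genes, which is 8.22% of those tested. Of these, 512 were higher in HC18 (5.92% of genes tested) and 199 were lower (2.3%), in a limma fit of log2(TPM + 1) with the condition and the time point as factors and Benjamini-Hochberg adjusted p below 0.05. Changes were mostly modest: the median absolute log2 difference of the called genes was 0.57, and 37 genes were at least 2-fold higher and 38 at least 2-fold lower. In 77 of the higher genes and 25 of the lower ones all 12 pairs had the same direction. The median log2 difference of all genes tested was 0.04. Higher genes made up 72% of the calls, but 51.3% after rescaling the libraries by the median ratio (553 higher, 525 lower) and 57% after quantile normalization (594 higher, 449 lower). The ranges of the groups overlapped for all genes tested except 7, which are named below. Without the time point in the fit 422 genes passed, so pairing by ZT moved the count by more than 1.5 times.

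The 8 pairs without ZT06, ZT08, ZT10 and ZT22 gave 341 genes (3.94% of those tested), 128 higher (1.48%) and 213 lower (2.46%), so the majority turned to lower levels in HC18. Both fits called 225 genes, and none with opposite sign: 119 of the 512 higher genes (23.2%) and 106 of the 199 lower genes (53.3%). All 711 genes called in 12 pairs kept their sign in 8 pairs. Leaving out the 4 HC18 libraries low in fmt alone left 138 genes, 71 higher and 67 lower. Leaving out the HC25 library of ZT06 alone gave 393 higher and 371 lower genes.

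The highest HC25 library lay below the lowest HC18 library, or the reverse, for 7 genes, 0.0809% of those tested. Those above HC25 included CG10581, CG6602, Cpr60D and CG43117. CG10581 had 21 to 52 TPM in HC18 libraries (median 38.2) and 1.23 to 14.8 TPM in HC25 libraries (median 4.61), and its HC18 median was also above the LC25 median of 8.98 TPM. It was 6.27-fold higher in HC18 (log2 difference 2.65 ± 0.236 SE, adjusted p = 6.78e-09), with the same difference in the 8 pairs (log2 difference 2.65, adjusted p = 2.08e-06). Polr3E, a subunit gene of RNA polymerase III on the opposite strand of the same locus, also differed (log2 difference 0.61, adjusted p = 0.0306), and the sources are silent on whether reads were assigned by strand. CG6602 had 15.4 to 34.5 TPM in HC18 libraries (median 24.1) and 1.29 to 13 TPM in HC25 libraries (median 3.51). Its log2 difference of 2.30 ± 0.182 SE in 12 pairs was 2.31 in 8 pairs (adjusted p = 2.08e-06). CG6602 overlaps CG13295 on the opposite strand (log2 difference 0.52, adjusted p = 0.110). The cuticle protein gene Cpr60D had 205 to 534 TPM in HC18 libraries (median 354) and 29.8 to 197 TPM in HC25 libraries (median 96.4), and CG43117 had 329 to 596 TPM in HC18 libraries (median 464) and 47.3 to 193 TPM in HC25 libraries (median 146). The groups were fully apart for these 4 genes. The other 3 genes with separate groups, of which CG11601 and Tsp96F are named after their values were seen, were CG11601, which rose (log2 difference 1.08), and Tsp96F (-0.58) and CG17931, which fell.

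**Figure D1:**
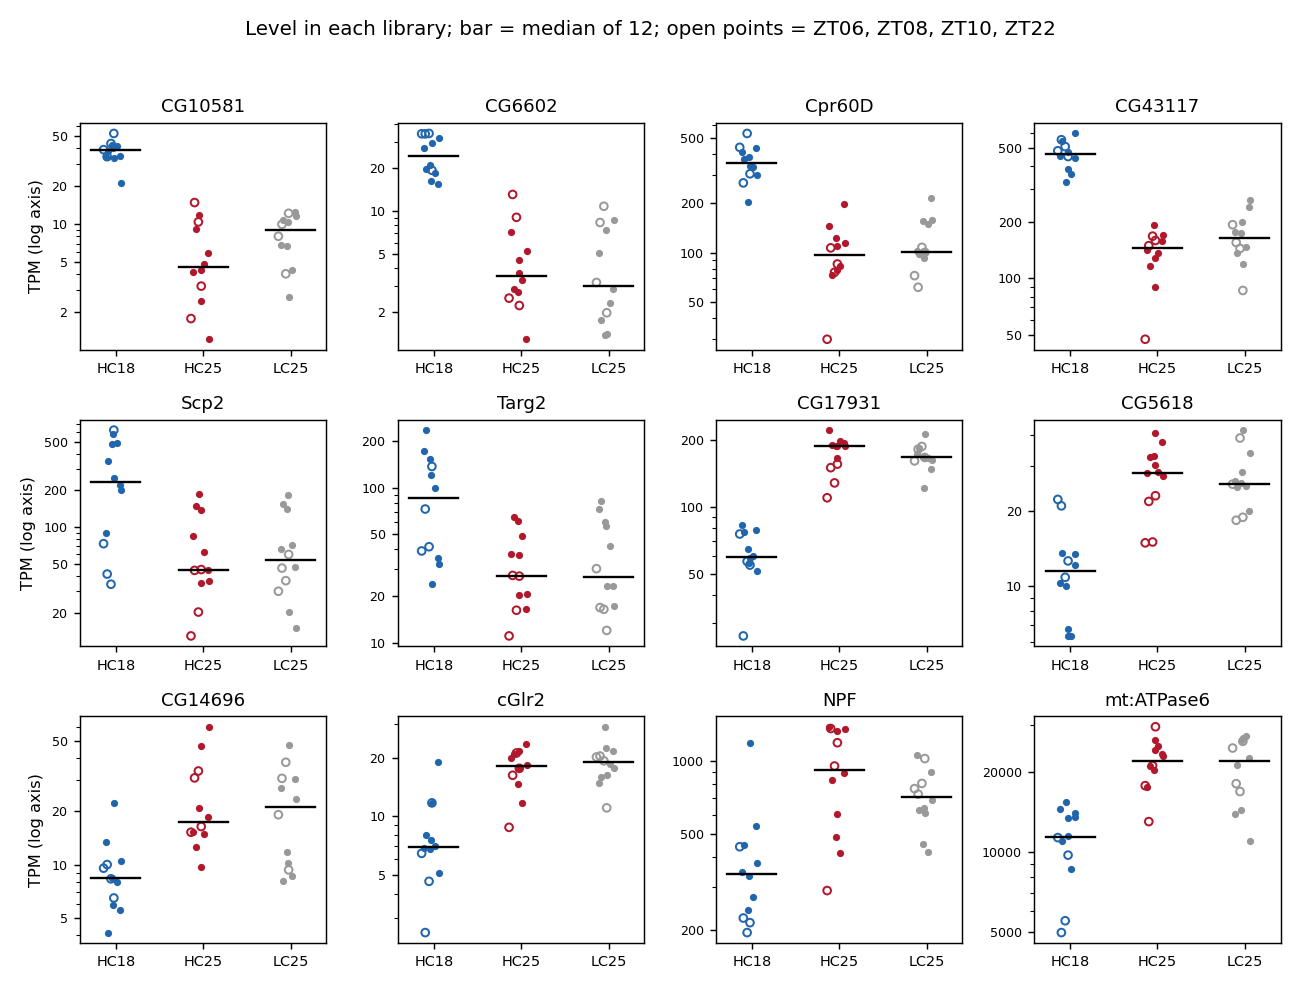
TPM of 12 genes (log axes) in each of the 12 HC18, 12 HC25 and 12 LC25 libraries; bars are medians, and open points are the libraries of ZT06, ZT08, ZT10 and ZT22. For CG10581, CG6602, Cpr60D and CG43117 all HC18 points lie above all HC25 points, for CG17931 all lie below, and in the other panels the groups overlap.

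The other genes among the 15 largest rises had overlapping ranges. Scp2, a sarcoplasmic calcium-binding protein gene, had 34.2 to 621 TPM in HC18 libraries (median 236) and 12.9 to 188 TPM in HC25 libraries (median 44.9), and 8 HC18 libraries exceeded the highest HC25 library. It rose 3.55-fold (log2 difference 1.83 ± 0.278 SE, adjusted p = 0.000137) in 11 of 12 pairs, and its 8-pair log2 difference was 1.89. Inx7, which encodes an innexin of gap junctions, had 11.5 to 31.1 TPM in HC18 libraries (median 22.5) and 4.61 to 15.4 TPM in HC25 libraries (median 8.23) and was 2.17-fold higher (log2 difference 1.12 ± 0.17 SE, adjusted p = 0.000137). Rises of 2 to 4-fold were also called for CG13051 (3.79-fold), CG31954 (3.67-fold), CG18598 (2.63-fold), Targ2 (2.62-fold), the melanization protease gene MP1 (2.51-fold), CG9436 (2.33-fold) and the cuticle protein gene Cpr50Cb (2.13-fold). Each of these 7 passed in the 8 pairs too, with adjusted p between 0.000209 and 0.0273. Hsp70Ab and CG9338 did not. Hsp70Ab, a heat shock protein gene with near-identical copies, had 0.0476 to 262 TPM in HC18 libraries (median 24.8) and 0.00172 to 23.1 TPM in HC25 libraries (median 1.45). Its 4 highest values were those of the HC18 libraries low in fmt, and its 8.46-fold rise (adjusted p = 0.0115) missed the threshold in 8 pairs (adjusted p = 0.204). CG9338 was 2.69-fold higher (adjusted p = 0.0149; 0.172 in 8 pairs).

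On the lower side, CG17931 had 26.2 to 82.6 TPM in HC18 libraries (median 59.3) and 109.6 to 221 TPM in HC25 libraries (median 187), with no overlap, and an LC25 median of 167 TPM. Its level was 0.355 times that of HC25 (log2 difference -1.49 ± 0.126 SE, adjusted p = 2.67e-09), and the 8-pair log2 difference was -1.53. The gene shares its locus and strand with CG42446. CG5618 had 6.36 to 22.2 TPM in HC18 libraries (median 11.5) and 14.9 to 40.7 TPM in HC25 libraries (median 28.3), and 10 of 12 HC18 libraries lay below every HC25 library. It fell to 0.445 times its HC25 level (log2 difference -1.17 ± 0.20 SE, adjusted p = 0.000489), and further in 8 pairs (log2 difference -1.66, adjusted p = 2.99e-06). cGlr2, a cGAS-like receptor gene of innate immunity, had 2.52 to 19 TPM in HC18 libraries (median 6.96) and 8.77 to 23.4 TPM in HC25 libraries (median 18.1) and was lower in 12 of 12 pairs (log2 difference -1.12 ± 0.181 SE, adjusted p = 0.000244). CG14696 had 4.13 to 22.2 TPM in HC18 libraries (median 8.35) and 9.64 to 59.8 TPM in HC25 libraries (median 17.5) and was also lower in 12 of 12 pairs (log2 difference -1.21 ± 0.175 SE, adjusted p = 9.25e-05). Both passed in the 8 pairs (adjusted p = 0.00235 for cGlr2 and 0.00457 for CG14696).

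Several of the 15 largest falls were in genes known from egg, yolk and gut. The egg thioredoxin gene dhd had 0 to 5.18 TPM in HC18 libraries (median 1.29) and 0.605 to 234 TPM in HC25 libraries (median 18.4), and the eggshell gene Vm34Ca had 0 to 6.43 TPM in HC18 libraries (median 0.435) and 0.655 to 132 TPM in HC25 libraries (median 8.82). Their highest values were in the HC25 library of ZT08, which also held 552 TPM of the summed female germline and eggshell markers. That sum was 10.2 to 23.7 TPM in HC18 (median 13.3) and 12 to 552 TPM in HC25 (median 41.2), with an LC25 median of 13.3 TPM. Of the 8 measured markers of this list 4 were lower in HC18 and 0 higher, with a list median of -1.12. The 4 were dhd and the eggshell genes Vm34Ca, Vm26Aa and Vm32E. Markers counted as measured at a mean of at least 1 TPM over the 36 libraries, which high HC25 libraries alone can supply. The filter thus favoured markers lower in HC18, and the counts and median of this list are descriptive only. In 8 pairs 0 passed (dhd adjusted p = 0.0506) and the list median was -0.54, and 1 passed with the 4 low-fmt HC18 libraries left out.

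The yolk protein genes Yp1 and Yp3, made in fat body and ovary, behaved alike: Yp1 had 0.599 to 13.2 TPM in HC18 libraries (median 3.2) and 2.2 to 96.2 TPM in HC25 libraries (median 12.9; log2 difference -1.97 ± 0.508 SE, adjusted p = 0.0143), and Yp3 was lower by a log2 difference of -1.53 (adjusted p = 0.0346). Summed fat body markers were 8.81 to 39.5 TPM in HC18 and 7.77 to 261 TPM in HC25, 2 of 4 measured members were lower and 0 higher (median -1.38), and 0 passed in 8 pairs (median -0.61). The lysozyme genes LysD and LysB, which have near-identical copies, had highest HC18 values of 2.35 and 0.962 TPM, against 12029 and 17425 TPM in the HC25 library of ZT06, the highest of HC25. They still passed in 8 pairs (adjusted p = 0.0375 and 0.0313), at HC25 medians of 4.65 and 2.6 TPM over all 12 libraries. Of 7 lysozyme genes in the list 4 were measured, of which 2 were lower and 0 higher. The list summed to a median of 1.37 TPM in HC18 and to at most 52696 TPM in HC25. Its members could thus count as measured through HC25 libraries alone. With the 4 low-fmt HC18 libraries left out neither LysD (adjusted p = 0.123) nor LysB (adjusted p = 0.202) passed, nor with a pseudocount of 5 (0.0703 and 0.134). The part of other tissue in these differences was not tested. Hr4, a nuclear receptor gene (log2 difference -1.39, adjusted p = 0.0489), CG43798 (-1.61, adjusted p = 0.0123) and CG7518 (-1.32, adjusted p = 0.0128) completed the 15 with mt:ND6 and NPF, and these 3 did not pass in 8 pairs (adjusted p = 0.454, 0.102 and 0.0584). All HC18 values of dhd, Vm34Ca, LysD and LysB lay below the mean of 10 TPM required for naming. These genes thus entered the 15 through HC25 libraries alone. In all, 13 of the 15 largest rises and 7 of the 15 largest falls passed in the 8 pairs, and 12 and 6 with the 4 low-fmt HC18 libraries left out. Of the 30 genes 14 overlap another gene in the annotation. Among them, Targ2 overlaps Targ1 and CG5618 overlaps eRF1, each on the same strand. How reads were divided between overlapping genes was not tested.

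Gene lists are described below by how many of their measured members (mean of at least 1 TPM over the 36 libraries) passed, and by their median log2 difference. Over all genes tested, 5.92% were higher and 2.3% lower in 12 pairs, and 1.48% and 2.46% in 8 pairs. Members named beyond the 4 of smallest p in a list were chosen after their values were seen. Mitochondrially encoded transcripts were lower and cytosolic ribosomal protein transcripts higher at 18 °C. Transcripts of the mitochondrial genome made up 3.08 to 13.3% of TPM in HC18 (median 8.58%) and 8.55 to 17.3% in HC25 (median 13.7%). They were lower in HC18 in 12 of 12 pairs, and the mean paired difference was -5.73 percentage points (SD 3.5, n = 12 pairs). Of 13 measured genes 11 fell and 0 rose, with a median log2 difference of -0.86. In 8 pairs 2 fell and the median was -0.53, with the 4 low-fmt HC18 libraries left out 2 fell, and all 8 pairs had the lower share in HC18 (mean difference -4.87 percentage points). mt:ATPase6, a subunit gene of ATP synthase, had 4954 to 15465 TPM in HC18 libraries (median 11386) and 12990.1 to 29607 TPM in HC25 libraries (median 22078), and 7 HC18 libraries lay below every HC25 library. It fell to 0.491 times its HC25 level (log2 difference -1.03 ± 0.162 SE, adjusted p = 0.000202) and passed in 8 pairs (adjusted p = 0.012). mt:Cyt-b, the cytochrome b gene of complex III, fell to 0.511 times (log2 difference -0.97 ± 0.166 SE, adjusted p = 0.000492; 0.0273 in 8 pairs). mt:ND6, a complex I subunit gene, had the largest fall of this group (log2 difference -1.49 ± 0.345 SE, adjusted p = 0.00739), with 8-pair adjusted p = 0.0622. mt:CoI (log2 difference -0.85) and mt:CoIII (-0.69) of complex IV fell as well, and neither passed in 8 pairs. After quantile normalization, which forces the top ranks of all libraries to equal values, 5 of the 13 passed as lower and mt:CoIII had a positive difference (0.26).

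Of 75 measured nuclear genes of the respiratory chain, 3 rose and 3 fell (median 0.08), near the 5.92% and 2.3% of all genes tested. UQCR-11, a complex III subunit gene, had 164 to 339 TPM in HC18 libraries (median 285) and 282 to 514 TPM in HC25 libraries (median 395) and was lower in 11 of 12 pairs (log2 difference -0.57 ± 0.117 SE, adjusted p = 0.00249; 0.00373 in 8 pairs). UQCR-6.4 (-0.41) and ND-MLRQ (-0.44) fell too, while ATPsyndelta (0.48), ND-20 (0.48) and UQCR-Q (0.47) rose. None of these 5 passed in 8 pairs (adjusted p between 0.0754 and 0.282), where UQCR-11 was the 1 that fell, with 0 higher, and the counts were also 1 lower and 0 higher with the 4 low-fmt HC18 libraries left out. The mitochondrial share was 3.08 to 7.05% of TPM in the HC18 libraries low in fmt, and the other 8 HC18 libraries had 6.86 to 13.3%.

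Cytosolic ribosomal protein transcripts made up 13.2 to 20.4% of TPM in HC18 (median 15%) and 9.73 to 15.2% in HC25 (median 11.9%), with more in HC18 in 10 of 12 pairs. Of 86 genes in the list 83 were measured, of which 50 rose and 0 fell, and 77 had a positive difference. Copies of near-identical sequence within this list are uncertain. Their median log2 difference was 0.42, against 0.04 over all genes tested. RpL10Ab had 1692 to 2721 TPM in HC18 libraries (median 2038) and 870.0 to 1865 TPM in HC25 libraries (median 1219.6) and rose 1.66-fold (log2 difference 0.73 ± 0.116 SE, adjusted p = 0.000205), and RpL19 had 1331 to 4349 TPM in HC18 libraries (median 2069) and 789.8 to 2089 TPM in HC25 libraries (median 1043) and rose 1.78-fold (log2 difference 0.83 ± 0.15 SE, adjusted p = 0.000803). The groups overlapped in both, with 7 and 6 HC18 libraries above all of HC25. RpS18 was higher in 12 of 12 pairs and RpL40 in 11. In 8 pairs 13 of the 83 rose and 0 fell (median 0.34), with the 4 low-fmt HC18 libraries left out 8 and 0, with libraries rescaled to the median ratio 45 and 0, and under quantile normalization 38 and 1. The share was 16.8 to 20.4% in the HC18 libraries low in fmt and 13.2 to 17.3% in the other 8, against 9.73 to 15.2% in the 8 HC25 libraries of the same times. Mitochondrial ribosomal proteins, which are made from nuclear genes, had 6 of 73 higher and 1 lower (median 0.17), near the 5.92% and 2.3% of all genes tested, led by mRpL45 (log2 difference 0.84 ± 0.188 SE, adjusted p = 0.00534). In 8 pairs 1 was higher and 1 lower (median 0.10), and with the 4 low-fmt HC18 libraries left out 0 passed.

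**Figure D2:**
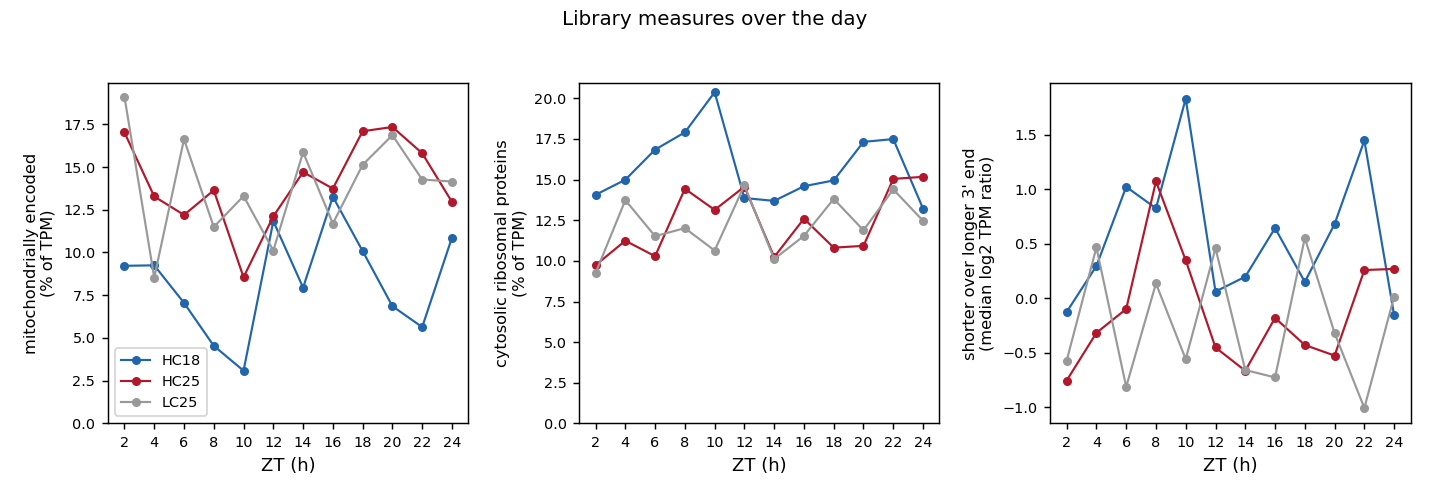
Share of TPM from mitochondrially encoded genes (left), share from cytosolic ribosomal protein genes (middle) and the median log2 TPM ratio of shorter to longer 3′ ends over 301 transcript pairs (right) in each library, by ZT in h. HC18 lies below HC25 at all 12 times in the left panel, above it at 10 of 12 in the middle panel and above it at 10 of 12 in the right panel.

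Protein folding and degradation genes rose in part. All 8 subunit genes of the CCT chaperonin, which folds actin, tubulin and other proteins, rose, with log2 differences of 0.40 to 0.73 (median 0.55). CCT7 had 46.6 to 75.1 TPM in HC18 libraries (median 60) and 22.3 to 51.1 TPM in HC25 libraries (median 39.4), with 11 of 12 HC18 libraries above all of HC25, and rose 1.55-fold in 12 of 12 pairs (log2 difference 0.64 ± 0.101 SE, adjusted p = 0.000206). CCT5 rose 1.66-fold (log2 difference 0.73 ± 0.154 SE, adjusted p = 0.00343). In 8 pairs 3 of the 8 CCT genes passed (CCT3, CCT5 and CCT7) and the median was 0.42. With Hsp70Ab and Hsp83 (log2 difference 0.47 ± 0.118 SE, adjusted p = 0.0119), 10 of 34 chaperone and heat shock genes rose and 0 fell (median 0.34), and in 8 pairs 3 rose. With the 4 low-fmt HC18 libraries left out 1 of the 34 rose: CCT7 passed (adjusted p = 0.00982) and CCT5 did not (0.130). Rescaling by the median ratio gave 11 higher and 1 lower.

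Of 35 proteasome genes 13 rose and 0 fell, with a median log2 difference of 0.30. The 20S core, which cuts the proteins, had 8 of 15 higher (median 0.40), and the 19S cap, which recognises and unfolds them, 5 of 20 (median 0.26). Prosbeta1, a core subunit gene, had 47.8 to 117 TPM in HC18 libraries (median 77.2) and 23.3 to 75 TPM in HC25 libraries (median 48). It rose 1.6-fold (log2 difference 0.67 ± 0.147 SE, adjusted p = 0.00456) and was the 1 member that passed in 8 pairs (adjusted p = 0.041), where the median of the 35 was 0.25. Prosalpha2 (0.47), Prosbeta6 (0.41) and Prosbeta7 (0.50) rose in 12 pairs and did not pass in 8, and 0 of the 35 passed with the 4 low-fmt HC18 libraries left out (Prosbeta1 adjusted p = 0.0780). In the unfolded protein response 3 of 20 rose and 0 fell: the disulfide isomerase gene ERp60 (0.48), sip3 (0.32) and the calnexin gene Cnx99A (0.44). Of these Cnx99A passed in 8 pairs (adjusted p = 0.0326), where 1 member was higher and 1 lower (median 0.10), and 0 passed with the 4 low-fmt HC18 libraries left out. Among 19 genes of oxidative stress defence 5 rose, led by the peroxiredoxin gene Prx5 (log2 difference 0.62 ± 0.121 SE, adjusted p = 0.0018) and followed by GstO3 (0.74), Prx2 (0.49), Trxr1 (0.51) and Sod1 (0.38). The 1 that fell was dhd. In 8 pairs Prx5 alone passed (adjusted p = 0.0241, against 0.0836 to 0.312 for the other 4), and with the 4 low-fmt HC18 libraries left out 1 was higher and 1 lower. Of 21 autophagy genes 0 passed.

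Translation factors moved both ways, 6 of 45 higher and 3 lower. The genes that rose, 5 of them of eIF3, which brings the ribosome to the mRNA, are named after their values were seen. eIF3d1 had 83.8 to 152 TPM in HC18 libraries (median 105) and 44.1 to 87 TPM in HC25 libraries (median 69.2), was higher in 12 of 12 pairs and rose 1.57-fold (log2 difference 0.65 ± 0.10 SE, adjusted p = 0.00016). eIF3b rose 1.49-fold (log2 difference 0.57 ± 0.0968 SE, adjusted p = 0.000406), and eIF3i (0.47), eIF3e (0.41), eIF3k (0.44) and eIF1A (0.26) rose too. Lower were eIF2A (log2 difference -0.38 ± 0.0936 SE, adjusted p = 0.0115), eIF4H1 (-0.37) and eIF1 (-0.35). eIF3d1, eIF3b, eIF2A and eIF4H1 passed in 8 pairs, 2 higher and 2 lower, and with the 4 low-fmt HC18 libraries left out the list had 2 higher and 1 lower. Splicing regulators had 1 of 45 higher, Rsf1 (0.44), and 3 lower, against 5.92% and 2.3% of all genes tested. The RNA-binding protein gene bru1 had 32.5 to 95.9 TPM in HC18 libraries (median 47.9) and 42 to 142 TPM in HC25 libraries (median 85.5) and fell to 0.657 times its HC25 level (log2 difference -0.61 ± 0.105 SE, adjusted p = 0.000586; 8-pair adjusted p = 0.00176), and bru2 (-0.48) and Hrb27C (-0.42) fell as well. In 8 pairs 5 splicing regulators were lower and 0 higher, and 1 was lower and 0 higher with the 4 low-fmt HC18 libraries left out.

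**Figure D3:**
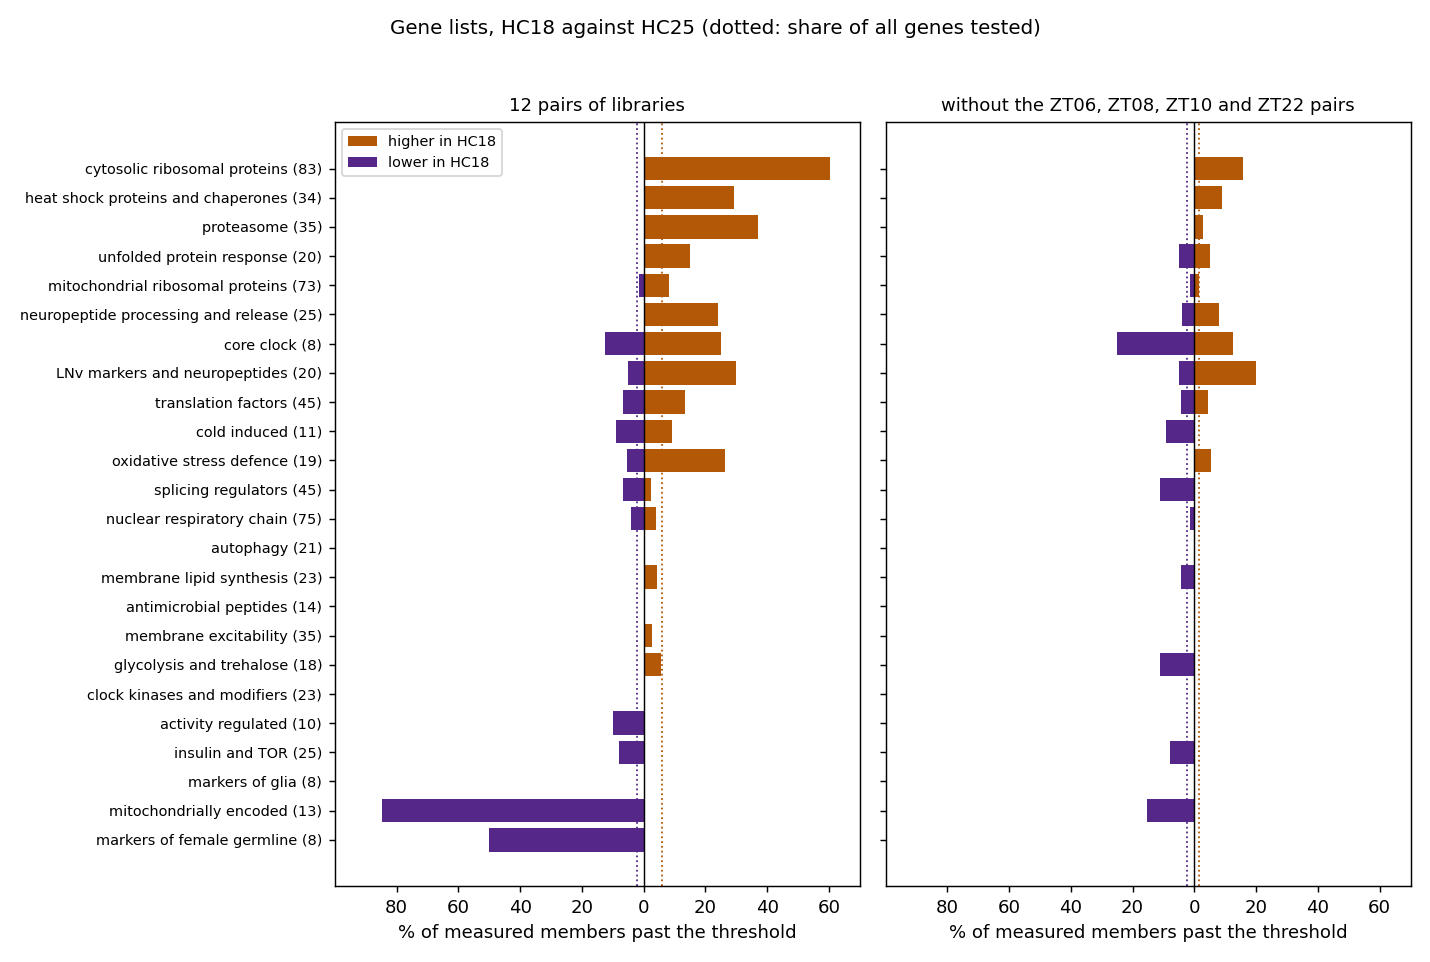
Share of the measured members of each list (number in brackets, lists of 8 or more) that was higher (right of 0) or lower (left) in HC18 at adjusted p below 0.05, from 12 pairs and from 8 pairs; dotted lines give the share over all genes tested. The longest bars in 12 pairs are those of mitochondrially encoded genes (11 of 13 lower), cytosolic ribosomal protein genes (50 of 83 higher) and the list labelled female germline, which includes eggshell genes (4 of 8 lower). In 8 pairs all 3 are shorter (2, 13 and 0 members). Members of the list labelled female germline could count as measured through HC25 libraries alone.

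In the clock itself the mean level of cry rose and that of Pdp1 fell. cry, the blue-light photoreceptor of the clock, had 454 to 1216 TPM in HC18 libraries (median 743) and 139 to 1389 TPM in HC25 libraries (median 354), so the groups overlapped. It was higher in 11 of 12 pairs and rose 1.91-fold (log2 difference 0.93 ± 0.188 SE, adjusted p = 0.00215), and it passed in 8 pairs (adjusted p = 0.0273). Pdp1, which activates transcription of Clk, had 131 to 1268 TPM in HC18 libraries (median 366) and 136 to 2479 TPM in HC25 libraries (median 700.0) and was at 0.658 times its HC25 level (log2 difference -0.60 ± 0.161 SE, adjusted p = 0.0172; 8-pair adjusted p = 0.0151). The repressor gene per had 5.63 to 64.4 TPM in HC18 libraries (median 29.6) and 2.23 to 37.9 TPM in HC25 libraries (median 20.8) and rose 1.42-fold (log2 difference 0.51 ± 0.162 SE, adjusted p = 0.0469), but its adjusted p was 0.214 in 8 pairs. Its partner tim had 34.1 to 684 TPM in HC18 libraries (median 119.9) and 27.4 to 907 TPM in HC25 libraries (median 187) and a log2 difference of -0.34 (adjusted p = 0.0958), which passed in 8 pairs (log2 difference -0.53, adjusted p = 0.0203) and after rescaling by the median ratio (adjusted p = 0.0113). Clk (0.12, adjusted p = 0.707), cyc (0.19, adjusted p = 0.382), vri (0.36, adjusted p = 0.258) and cwo (-0.02, adjusted p = 0.935) did not pass. In total 2 of 8 core clock genes rose and 1 fell, in 8 pairs 1 rose and 2 fell, and with the 4 low-fmt HC18 libraries left out 0 rose and 1 fell (adjusted p = 0.0396 for Pdp1 and 0.0610 for cry). Of 23 clock kinases and modifiers 0 passed, with the smallest adjusted p for Doa (0.0748), a kinase gene with a log2 difference of 0.65. Of 5 measured temperature-sensing genes (of 16 in the list) 0 passed, and norpA, the phospholipase C gene of vision and thermosensing, had -0.29 (adjusted p = 0.114).

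**Figure D4:**
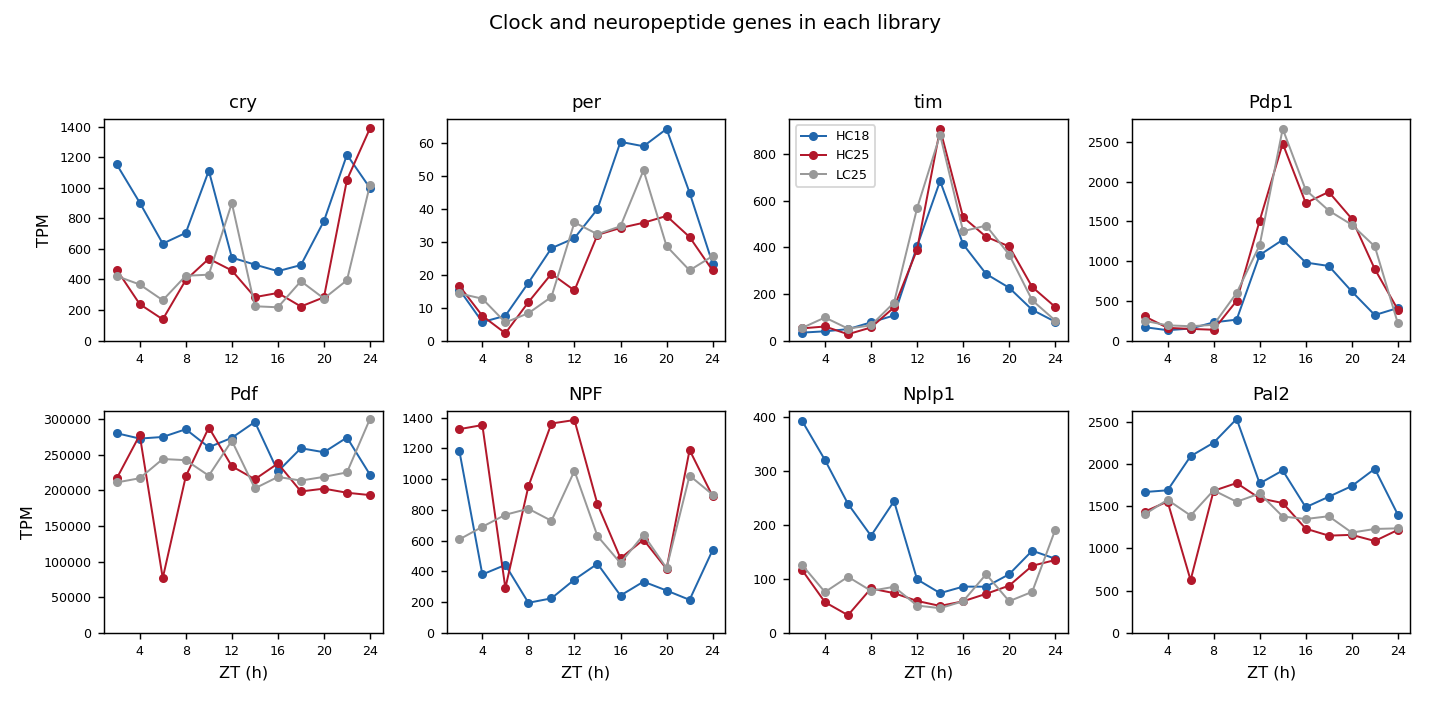
TPM of 8 clock and neuropeptide genes against ZT (h), 1 point per library of HC18, HC25 and LC25. HC18 lies above HC25 at 11 of 12 times for cry and at 12 of 12 for Nplp1, and below it for NPF at 11 of 12, and the highest library of Pdp1 reaches 1268 TPM in HC18 and 2479 TPM in HC25.

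Neuropeptide genes differed in both directions, with 6 of 20 LNv markers and neuropeptides higher and 1 lower. NPF, neuropeptide F, had 195 to 1185 TPM in HC18 libraries (median 339) and 291 to 1385 TPM in HC25 libraries (median 921) and an LC25 median of 709 TPM. It was lower in 11 of 12 pairs, at 0.425 times its HC25 level (log2 difference -1.23 ± 0.216 SE, adjusted p = 0.000586; 8-pair adjusted p = 0.00406). NPF is also the member of the list of other clock neurons that fell, 1 of 5 with 0 higher. Nplp1, which encodes a neuropeptide precursor, had 73.4 to 393 TPM in HC18 libraries (median 145) and 32.5 to 135 TPM in HC25 libraries (median 72.7) and was higher in 12 of 12 pairs (log2 difference 1.05 ± 0.20 SE, adjusted p = 0.00138; 8-pair adjusted p = 0.0396). Its highest HC18 values were at ZT02 and ZT04. The leucokinin gene Lk rose 2.67-fold (log2 difference 1.41 ± 0.342 SE, adjusted p = 0.00962) at a low level, with 3.58 to 23 TPM in HC18 libraries (median 8.42) and 0 to 9.3 TPM in HC25 libraries (median 2.84), and Dh44, a diuretic hormone gene, 1.98-fold (log2 difference 0.99 ± 0.232 SE, adjusted p = 0.0079). Both passed in 8 pairs. In 8 pairs the list had 4 higher and 1 lower, and with the 4 low-fmt HC18 libraries left out 1 and 1, with NPF passing (adjusted p = 0.0152) and Nplp1 not (0.0530). The PDF receptor gene Pdfr rose 1.52-fold (adjusted p = 0.00722; 0.087 in 8 pairs) and the nuclear receptor gene Hr51 1.44-fold (adjusted p = 0.0129; 0.0749 in 8 pairs). Pdf did not pass (log2 difference 0.37 ± 0.166 SE, adjusted p = 0.164), and its log2 difference without ZT06, ZT08, ZT10 and ZT22 was 0.23.

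Enzymes that turn peptide precursors into active peptides rose in part. Pal2 and Phm carry out the amidation that most neuropeptides, PDF included, need. Pal2 had 1399.7 to 2534 TPM in HC18 libraries (median 1754) and 623 to 1774 TPM in HC25 libraries (median 1334) and rose 1.4-fold in 12 of 12 pairs (log2 difference 0.49 ± 0.107 SE, adjusted p = 0.00468; 8-pair adjusted p = 0.0453). Phm rose 1.36-fold (log2 difference 0.45 ± 0.104 SE, adjusted p = 0.00741; 0.0733 in 8 pairs), with 9 HC18 libraries above all of HC25. The carboxypeptidase gene svr had 859.6 to 1336 TPM in HC18 libraries (median 1055) and 399 to 1017 TPM in HC25 libraries (median 795) and rose 1.5-fold (log2 difference 0.58 ± 0.116 SE, adjusted p = 0.00212; 0.0289 in 8 pairs). amon, the prohormone convertase gene (0.43), and the vesicle release genes Sytbeta (0.60) and Rph (0.46) rose in 12 pairs, so that 6 of 25 genes of peptide processing and release were higher and 0 lower. The list median was 0.16 in 12 pairs and 0.03 in 8. In 8 pairs 2 were higher and 1 lower, and with the 4 low-fmt HC18 libraries left out 1 was higher, svr (adjusted p = 0.0341), with 0.124 for Pal2 and 0.156 for Phm.

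Few genes passed in the other lists, whose counts stand against 5.92% higher and 2.3% lower over all genes tested. Of 35 membrane excitability genes 1 rose, the potassium channel gene sand (log2 difference 0.91 ± 0.212 SE, adjusted p = 0.00769; 0.205 in 8 pairs), at HC18 and HC25 medians of 5.61 and 2.23 TPM. Of 10 activity-regulated genes kay, the fly Fos gene, fell (log2 difference -0.74 ± 0.17 SE, adjusted p = 0.00647; 0.129 in 8 pairs). In insulin and TOR signalling 2 of 25 fell, scyl (log2 difference -0.42 ± 0.117 SE, adjusted p = 0.0245) and chrb (log2 difference -0.43 ± 0.121 SE, adjusted p = 0.0258), which encode the REDD-like inhibitors of TOR, and both passed in 8 pairs. Neither passed with the 4 low-fmt HC18 libraries left out (adjusted p = 0.192 for scyl and 0.0883 for chrb) or without the time point in the fit. In glycolysis and trehalose metabolism the pyruvate kinase gene PyK rose (log2 difference 0.58 ± 0.171 SE, adjusted p = 0.0317), 1 of 18, and in membrane lipid synthesis AcCoAS did (0.35), 1 of 23. Neither passed in 8 pairs (adjusted p = 0.140 for PyK and 0.250 for AcCoAS), where 0 of the glycolysis list were higher and 2 lower. The desaturase gene Desat1 had 150.3 to 265 TPM in HC18 libraries (median 224) and 170.4 to 338 TPM in HC25 libraries (median 254) and a log2 difference of -0.27 (adjusted p = 0.114), and passed as lower in 8 pairs (adjusted p = 0.00849). Among 11 cold-induced genes Hsp83 rose and regucalcin fell (log2 difference -0.50 ± 0.14 SE, adjusted p = 0.0247), and neither passed in 8 pairs (adjusted p = 0.0728 and 0.150). The 4 lists of excitability, activity-regulated, cold-induced and lipid genes had 0 members past the threshold with the 4 low-fmt HC18 libraries left out. Of 14 antimicrobial peptide genes 0 passed, nor did any of the measured markers of glia (8), photoreceptors (4), muscle (4), monoaminergic neurons (7) or other transmitters (4). Of 2 haemocyte markers Pxn rose (0.47, adjusted p = 0.0132; 0.152 in 8 pairs). Of 5 genes listed for temperature-dependent splicing, which include norpA beside clock genes, 1 passed in level, per.

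At the level of single transcripts, 675 of 14167 passed (4.76%), 449 higher (3.17%) and 226 lower (1.6%), in 626 genes. Of these, 219 belonged to 198 genes whose summed level did not pass. Opposite calls within a gene occurred in 20 of the 45 genes with 2 or more called transcripts. The examples that follow were chosen after their values were seen. 14-3-3epsilon, which encodes a signalling adaptor, had 394 to 1205 TPM of isoform RA in HC18 and 239 to 459 in HC25 (log2 difference 0.83), while RD fell (-0.51). COX4, a cytochrome oxidase subunit gene, exchanged RB (-0.68) for RA (0.92), and ATPsynG, an ATP synthase subunit gene, RD (-0.79) for RB (0.73). None of these 3 genes passed as a whole (adjusted p = 0.0779, 0.497 and 0.576). In 8 pairs the rise of ATPsynG-RB (adjusted p = 0.043) and the fall of 14-3-3epsilon-RD (0.0126) passed.

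Isoform switches were tested as the log2 ratio of a transcript to the rest of its gene, each with 1 TPM added. Of 5795 ratios in 2630 genes, 115 passed (1.98%), 59 higher and 56 lower in HC18, in 79 genes, and 1110 had an unadjusted p below 0.05. In 8 pairs 40 passed (0.69%), 32 of them in common, in 20 genes, and all 115 kept their sign. Of the 79 genes 15 were also called in level. Isoforms of a gene share most of their bases, so these values rest on how the quantification divides shared reads, and a value listed at 0 can be an estimate.

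Of the 15 switches of largest size 7 passed in 8 pairs and 3 with the 4 low-fmt HC18 libraries left out, Roc1a, Spase25 and Vps28 (adjusted p = 0.00320, 0.00183 and 0.0427). Their sizes depend on the TPM added: Roc1a-RA had log2 ratio differences of 6.23, 5.42 and 3.61 with 0.5, 1 and 5 TPM. With 0.5 TPM added Gdi-RA (adjusted p = 0.0547), Prosalpha6-RB (0.0589) and Sirt4-RB (0.0589) did not pass. In 8 of the 15, the isoforms differed in the 3′ end alone and the shorter one gained in HC18. Roc1a encodes the RING subunit of cullin ubiquitin ligases, and its isoforms RA and RD share 3 exons and the coding sequence, with 3′ untranslated regions of 228 and 677 bases in the Ensembl annotation. The short isoform RA made up 2.42 to 73.2% in HC18 libraries (median 42.2%) and 0 to 35.1% in HC25 libraries (median 0%), and it was listed at 0 in 9 of 12 HC25 libraries and in 0 of 12 HC18 libraries. Its ratio was higher in 12 of 12 pairs (log2 ratio difference 5.42 ± 0.71 SE, adjusted p = 6.67e-05) and passed in 8 pairs (difference 5.94, adjusted p = 0.000269). The gene's summed level did not pass (adjusted p = 0.0898). His3.3A, a gene of the replacement histone H3.3, had the same kind of difference: RD, 154 bases shorter at the 3′ end than RC, made up 4.01 to 63.2% in HC18 libraries (median 40.1%) and 0 to 40.9% in HC25 libraries (median 0%; log2 ratio difference 5.29 ± 0.968 SE, adjusted p = 0.00363; 8-pair adjusted p = 0.00376). Spase25, a signal peptidase subunit gene, held more of RB, which ends 328 bases before RC and made up 40.1 to 62.7% in HC18 libraries (median 52.2%) and 0 to 50.2% in HC25 libraries (median 3.02%). The difference held in 12 of 12 pairs (log2 ratio difference 4.44 ± 0.672 SE, adjusted p = 0.000404) and in 8 pairs (adjusted p = 0.00376).

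**Figure D5:**
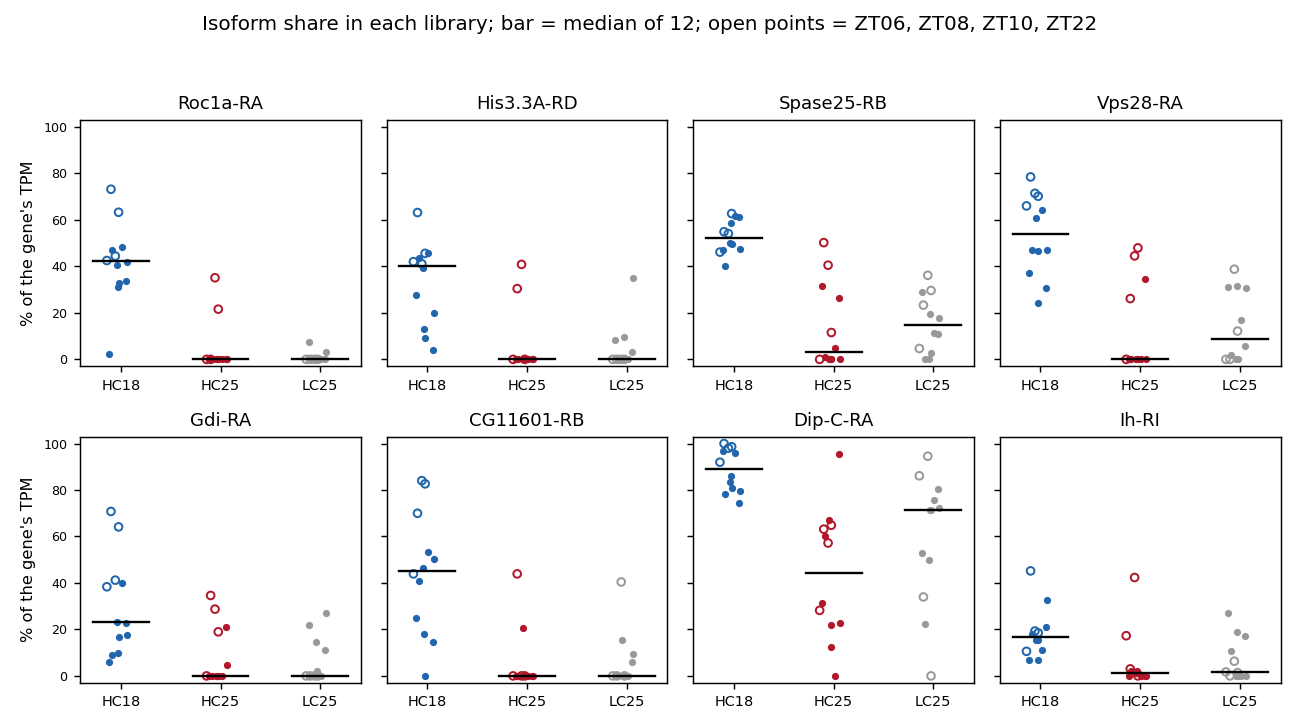
Share of a gene's TPM (%) held by 1 isoform of 8 genes, in each of the 12 HC18, 12 HC25 and 12 LC25 libraries; bars are medians, and open points are ZT06, ZT08, ZT10 and ZT22. Roc1a-RA has a median of 42.2% in HC18 and 0% in HC25, and HC18 points overlap the highest HC25 points in all 8 panels.

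Vps28, Gdi, CG11601, Ubc4 and Prosalpha6 showed the same kind of difference. In Vps28, an ESCRT gene of endosomal sorting, the long isoform RB made up 21.5 to 75.6% in HC18 libraries (median 46.1%) and 52 to 100% in HC25 libraries (median 100%; log2 ratio difference -4.35 ± 0.761 SE, adjusted p = 0.00228; 8-pair adjusted p = 0.00521), and the rest was RA, which ends 368 bases earlier. Gdi encodes the inhibitor that recycles Rab GTPases, and its isoform RA, 760 bases shorter than RB, had a median of 23% in HC18 and 0.0467% in HC25 (log2 ratio difference 4.61 ± 1.21 SE, adjusted p = 0.0468; 8-pair adjusted p = 0.0444). The short CG11601-RB had a median of 45.2% in HC18 and 0% in HC25 (log2 ratio difference 3.39 ± 0.596 SE, adjusted p = 0.00229), and this gene also rose in level. The ratio of Ubc4-RC, the long isoform of a ubiquitin-conjugating enzyme gene, was lower in 12 of 12 pairs (log2 ratio difference -2.90 ± 0.743 SE, adjusted p = 0.0431; 0.24 in 8 pairs). At ZT24 its share was 100% in both libraries, so the lower ratio there came from the gene's level and the added 1 TPM. At ZT12 and ZT18 its share was at least 99.9998% in both libraries. Prosalpha6-RB was lower too (log2 ratio difference -3.94 ± 1.05 SE, adjusted p = 0.0498; 0.0821 in 8 pairs), in a pair that differs by 43 bases. Spase25, Vps28, CG11601 and Prosalpha6 also rose in summed level, and the ranges of the isoform shares overlapped between the groups.

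Of the other 7 switches, 3 joined isoforms with 1 coding sequence and other differences in the untranslated regions, and 4 joined different coding sequences. Dip-C, a dipeptidase gene, held 74.6 to 100% in HC18 libraries (median 89.1%) and 0 to 95.6% in HC25 libraries (median 44.3%) as RA, whose 5′ untranslated region is 172 bases long, against 376 in RB. RB was lower in 11 of 12 pairs (log2 ratio difference -3.70 ± 0.842 SE, adjusted p = 0.0227), but not past the threshold in 8 pairs (adjusted p = 0.117), and the gene as a whole rose (log2 difference 0.89). The aldolase gene Ald1 had 32.5 to 80.7% in HC18 libraries (median 59.3%) and 0 to 77.4% in HC25 libraries (median 18.6%) as RC, whose 3′ untranslated region is 141 bases against 1276 in RB (log2 ratio difference 3.53 ± 0.852 SE, adjusted p = 0.0316; 0.0517 in 8 pairs). akirin-RD, which carries the longer of the annotated 3′ untranslated regions of that gene, fell (log2 ratio difference -3.82 ± 0.945 SE, adjusted p = 0.0353; 0.139 in 8 pairs). It is grouped here by its most gained isoform, RE. The isoform RA of akirin differs from RD in the 3′ end alone and ends 928 bases earlier. The ratio of RA to RD was also higher in HC18 (log2 difference 4.39). With a different coding sequence, the isoform RI of Ih, the hyperpolarization-activated channel gene, had a median of 16.8% in HC18 and 1.26% in HC25 and rose (log2 ratio difference 3.14 ± 0.769 SE, adjusted p = 0.0346; 0.0472 in 8 pairs). RI is annotated with 11 exons and a coding length of 1803 bases, against 14 exons and 3870 bases in RB, the most abundant isoform. RB of Sirt4, a mitochondrial sirtuin gene, was lower in 12 of 12 pairs (log2 ratio difference -3.02 ± 0.769 SE, adjusted p = 0.0431), and in 11 of 12 pairs so were RB of the metalloprotease gene Tace (log2 ratio difference -2.81 ± 0.725 SE, adjusted p = 0.0431) and RA of sax, a BMP receptor gene (log2 ratio difference -3.33 ± 0.793 SE, adjusted p = 0.0294). The last 3 did not pass in 8 pairs (adjusted p = 0.0785, 0.21 and 0.262).

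The longer 3′ end gained in other genes. CG17931, which fell in level, held more of its long isoform: RD, which ends 605 bases after RA, made up 13.2 to 52.6% in HC18 libraries (median 30.6%) and 4.07 to 12.3% in HC25 libraries (median 8.71%), with no overlap and higher in 12 of 12 pairs (log2 ratio difference 2.18 ± 0.275 SE, adjusted p = 4.26e-05; 8-pair adjusted p = 0.000265). The longer 3′ end also gained in mub and pira. These genes, and the grouping by 3′ end, were chosen after their values were seen. Of the 77 genes with a called ratio and 2 or more tested isoforms, the most gained and the most lost isoform differed in the 3′ end alone in 20 (26.0%), and the shorter gained in 17 of those 20. Over all 2436 such genes tested the ends differed alone in 282 (11.6%), and the shorter isoform had the higher difference, whether past the threshold or not, in 230 of 282. In these counts too, an isoform could meet the share filter through HC18 libraries alone.

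Over 301 pairs of isoforms that differ only by at least 50 bases at the 3′ end, in 294 genes, the ratio of shorter to longer was higher in HC18 than in HC25 in 246 (81.7%), with a median log2 difference of 0.82. In 8 pairs of libraries it was higher in 244 of 301 (81.1%), with a median of 0.58. Against the same HC25 libraries LC25 had a higher ratio in 129 of 301 pairs (median -0.09). Per library, the median log2 ratio over these pairs was -0.157 to 1.83 in HC18 (median 0.469) and -0.757 to 1.07 in HC25 (median -0.25), so the groups overlapped. It was higher in HC18 in 10 of 12 pairs. The HC18 libraries low in fmt had 0.825 to 1.83, all above the other 8 (-0.157 to 0.68). The highest HC25 value was that of ZT08, the HC25 library with the most RNA of glia markers and of female germline and eggshell markers. The mean paired difference was 0.697 (SD 0.569, n = 12 pairs) and 0.601 in the 8 pairs (SD 0.471), higher in 7 of 8. RNA was amplified with T7 RNA polymerase before sequencing, and the part of RNA quality and amplification in 3′-end ratios was not tested.

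No tested isoform ratio of per or tim passed. The fit can miss differences of this kind. In simulated data it recovered 0% of ratio differences of log2 size 0.5, 22% of size 1 and 64% of size 2. These shares are over ratios of all genes, so a moderate difference in per or tim could go uncalled. The per isoforms RA and RB differ in an intron of the 3′ untranslated region, whose splicing is known to respond to temperature. RB, the isoform annotated with 9 exons and the shorter 3′ untranslated region (418 bases, against 504 in RA), made up 15.1 to 42.3% of per in HC18 (median 29.9%) and 0 to 56% in HC25 (median 23.1%). The groups overlapped, with a log2 ratio difference of 0.12 ± 0.265 SE (adjusted p = 0.844) and RB higher in 8 of 12 pairs. Of tim, the most abundant isoform RR made up 0.16 to 75.3% in HC18 (median 41.5%) and 4.66 to 74.6% in HC25 (median 36.1%). RS, annotated with a shorter coding length of 3297 bases and a 3′ untranslated region of 1574 bases, had medians of 18.8% and 26.7% and a log2 ratio difference of -0.59 ± 0.301 SE (adjusted p = 0.287). RB and RT of tim have identical TPM in every library, at medians of 12.8% in HC18 and 10.6% in HC25 each (adjusted p = 0.674). RL had medians of 5.48% and 8.77%, and RM, RN, RO and RP had medians at or below 1.21%. Single HC18 libraries reached 11.9% of RP, 5.79% of RN and 4.52% of RO. The ratios of RL, RM, RN, RO and RP were not tested. Of Clk, RH made up a median of 92% in HC18 and 89.8% in HC25, RA 7.25% and 9.47%, and RD, RF and RG had medians of 0%, and no ratio of Clk was tested.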

How the data were processed

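TPM, a measure of abundance scaled by transcript length and library total, were deposited by the authors per transcript for 36 libraries, and kallisto is named in the submitters' processing notes. The sources used here give neither its version nor the transcript set, and are silent on strand. TPM carry no sequencing depth, so no counting interval is given. The authors' deposited gene sums (36 per-sample columns) and rhythm tables were not used. The members and lists were chosen with earlier results of these data known.

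Of 30485 transcripts, 30246 matched the Ensembl release 115 annotation (BDGP 6.54), used for names and isoform structure, and TPM were summed per gene. Genes and transcripts with a mean of at least 1 TPM over 36 libraries were tested as log2(TPM + 1) in limma 3.58.1 (R 4.3.3), with condition and time point as factors, on all 36 libraries (22 residual degrees of freedom), after the fits were tested on simulated data. Fold changes are of TPM + 1 and so are too small for low genes. Isoform ratios required a gene mean of at least 5 TPM and a share of 0.1 to 0.9. Adjustment of p-values (Benjamini-Hochberg) ran over all features of a test.

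Named genes were the 15 higher and 15 lower called genes of largest change with a mean of at least 10 TPM and the same direction in at least 10 of 12 pairs, the core clock genes, Pdf and Stip1, and up to 4 members per list of smallest p. The values of Stip1 are not given here. Named isoforms were the 15 of largest change in ratio, 1 per gene, under the same limits. Libraries of the 2 temperatures share their ZT in the labels, and 10 of 12 such pairs deviated together (correlation above 0.1; lowest -0.0647, median 0.234, highest 0.422).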

Additional observations from a re-analysis of the deposited data

How the results depend on the processing

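Main counts were 711 genes, 675 transcripts and 115 isoform ratios. Without the time point as a block, so that the pairing by ZT was not used, 422 genes and 428 transcripts passed. Without the ZT06, ZT08, ZT10 and ZT22 libraries the counts were 341 genes, 314 transcripts and 40 isoform ratios, and when the 4 HC18 libraries low in fmt were left out they were 138, 117 and 20. The construction of these fits leaves fewer libraries; any other cause was not tested. Isoform ratios also came to 73 without the ZT06 libraries, to 206 with a pseudocount of 5 and to 209 for genes with a mean of at least 20 TPM. Rescaling by the median ratio gave 1078 genes. Under the other settings counts stayed within 1.5 times the main count. Among values of single genes and isoforms, 2137 kept direction and call, 211 lost the call, 45 gained one and 1 reversed: mt:CoIII, with 0.26 after quantile normalization. The fits without the HC25 ZT06 library, without the 4 HC18 libraries and with identical transcripts merged were chosen after seeing the data. The unknown depth limits low transcripts most.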

Other observations

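Single transcripts of a few more genes passed in opposite directions, and are given as values chosen after they were seen. Fmr1, which encodes an RNA-binding regulator of translation in neurons, had 7.85 to 29.6 TPM of isoform RF in HC18 (median 12.9) and 0 to 18.5 TPM in HC25 (median 4.02). RF rose in 12 pairs (log2 difference 1.99, adjusted p = 0.0231) and in 8 pairs (adjusted p = 0.0392), while RE fell (log2 difference -0.87, adjusted p = 0.0390; 0.121 in 8 pairs) and the summed gene did not pass (adjusted p = 0.892). Spase22-23, a signal peptidase subunit gene, had 293 to 447 TPM of RA in HC18 (median 354) and 109.7 to 331 TPM in HC25 (median 179). RA rose (log2 difference 0.92, adjusted p = 0.000438) and RB fell (-0.55, adjusted p = 0.0372), and both passed in 8 pairs (adjusted p = 0.0157 and 0.0324). In cpx, the complexin gene of synaptic vesicle release, RAB had 13.7 to 41.7 TPM in HC18 (median 21.2) and 22.4 to 61.9 TPM in HC25 (median 36.4), a fall that passed in 12 and in 8 pairs (adjusted p = 0.00658 and 0.0107), while RV (log2 difference 2.22), RC (2.69) and RA (2.70) rose in 12 pairs (adjusted p = 0.00795, 0.00871 and 0.0243). In 8 pairs RC passed (adjusted p = 0.0495), and RV and RA did not (0.138 and 0.354). All these ranges overlapped between the groups. The transcripts of cpx share most of their sequence, and its summed level did not pass (adjusted p = 0.643).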
